A study of Mus musculus with 6 samples.

Results

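The 42 genes described here are the proliferation genes of the mouse tumors: 9 regulators of the G1 phase (the D and E cyclins, E2f1, E2f2, Myc, and Cdkn1b), 14 genes of DNA replication in S phase, and 19 genes of G2 and mitosis. All 42 were found by symbol among the 26167 genes listed. The rule uses no measured value, although earlier results of these data were known when the list was drawn up. The tumors grew from Hep1-6 cells (spelled Hepa1-6 in the study), a mouse hepatoma line, injected under the skin of female C57BL/6J mice 6 to 8 weeks of age. The Sora group (3 tumors, numbered 2, 3, and 4 in the sample labels) came from mice given sorafenib (Sora), an inhibitor of RAF and several receptor tyrosine kinases, by intraperitoneal injection at 10 mg/kg on days 9, 11, 13, and 15 after the cells. The control group (3 tumors, numbered 1, 3, and 4) bore the same cells without Sora, and the labels do not say whether vehicle was given. The labels do not say how the tumors of a group were spread over mice or experiments, so p-values measure the spread between these samples. A graft of 1 cell line under the skin is not a liver tumor in its own tissue, and RNA of the whole tumor also holds RNA of stroma, immune cells, skin, and muscle.

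In dividing cells, growth signals through RAS, RAF, and ERK raise Myc and cyclin D1, and the D and E cyclins with their kinases release E2F factors from the retinoblastoma protein. E2F factors then switch on the genes of DNA replication, among them the MCM helicase, its loaders, and the enzymes that make deoxynucleotides. The genes of G2 and mitosis follow, when cyclin B with Cdk1, the Aurora and Polo kinases, and the spindle motors build and resolve the spindle. Many promoters of replication genes carry E2F sites, whereas many promoters of mitotic genes carry a CHR element (cell cycle genes homology region) and CCAAT boxes bound by NF-Y.

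RefSeq windows from 250 bases before to 50 bases after a start site on GRCm38.p6 were matched for 31 of the 42 genes and gave 34 windows. The genes without a matched window were Ccnd1, Ccnd2, Ccne2, Myc, Mcm4, Gins1, Gins2, Ccna2, Aurkb, Kif20a, and Tpx2. Each window was searched on both strands, with overlapping matches counted, for the E2F motif TTTNNCGC (each N being C or G), for the CHR motif TTTGAA, and for CCAAT. The E2F motif was present in 6 of 12 S phase windows (50%) and in 1 of 15 mitotic windows (6.67%), against 2.26% of all 32851 windows. The CHR motif was present in 11 of 15 mitotic windows (73.3%) and in 1 of 12 S phase windows (8.33%), against 17.9% of all windows. Of the 7 G1 windows, 1 held the E2F motif and 1 the CHR motif (14.3% for each). CCAAT was present in 14 of 15 mitotic windows (93.3%), 9 of 12 S phase windows (75%), and 4 of 7 G1 windows (57.1%), against 37.4% of all windows. All 11 mitotic windows with a CHR motif also had CCAAT, a pairing found in 6.95% of all windows. A match is a run of letters and not a measured binding site.

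**Figure D1:**
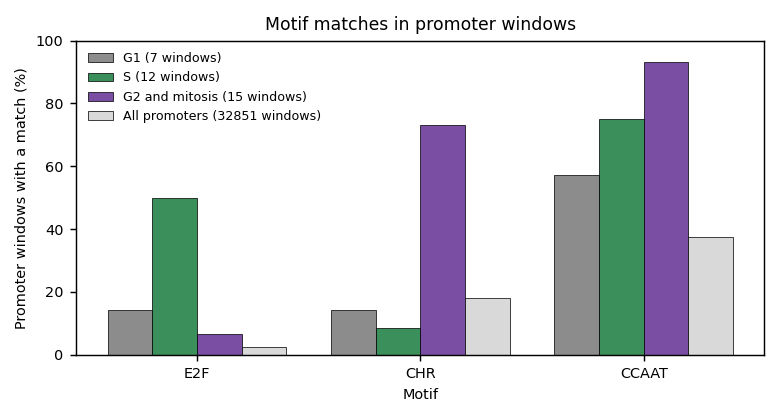
Share of promoter windows (percent, y axis) with at least 1 match to the E2F, CHR, or CCAAT motif (x axis), for the G1, S phase, and mitotic genes and for all 32851 windows. The E2F bar is tallest for S phase genes (50%), and the CHR bar for mitotic genes (73.3%).

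The promoters of Mcm3, Mcm5, and Mcm6 are shown as examples that each held 2 or more E2F matches, which are in capitals. The window of Mcm2 and 1 of the 2 windows of Mcm7 held 0 E2F matches, and that of Mcm2 held the CHR match of the S phase genes. The other window of Mcm7 held 2 E2F matches and is not shown. The windows lie at chr1:20820263-20820562 (minus strand) for Mcm3, chr8:75109259-75109558 (plus strand) for Mcm5, and chr1:128359656-128359955 (minus strand) for Mcm6, all on GRCm38.p6 and written 5′ to 3′ on the strand of the gene.
Mcm3: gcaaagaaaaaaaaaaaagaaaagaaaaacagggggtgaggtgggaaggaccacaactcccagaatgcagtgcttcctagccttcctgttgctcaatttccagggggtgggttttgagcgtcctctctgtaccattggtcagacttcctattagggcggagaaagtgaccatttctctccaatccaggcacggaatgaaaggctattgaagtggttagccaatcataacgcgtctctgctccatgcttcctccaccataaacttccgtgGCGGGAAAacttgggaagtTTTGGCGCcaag
Mcm5: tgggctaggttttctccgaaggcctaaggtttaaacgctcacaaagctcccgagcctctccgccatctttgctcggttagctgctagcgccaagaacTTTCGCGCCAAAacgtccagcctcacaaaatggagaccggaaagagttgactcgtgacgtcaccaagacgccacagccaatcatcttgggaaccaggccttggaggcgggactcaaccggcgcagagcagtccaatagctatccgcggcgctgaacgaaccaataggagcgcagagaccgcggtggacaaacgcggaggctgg
Mcm6: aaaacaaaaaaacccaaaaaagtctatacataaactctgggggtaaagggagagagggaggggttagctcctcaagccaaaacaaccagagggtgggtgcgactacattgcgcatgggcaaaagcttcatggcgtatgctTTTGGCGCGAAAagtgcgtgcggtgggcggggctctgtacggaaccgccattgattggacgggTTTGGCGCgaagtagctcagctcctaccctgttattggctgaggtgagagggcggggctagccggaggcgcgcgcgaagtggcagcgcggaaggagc

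Mcm3 had 2 E2F matches, both after its start site, Mcm5 had 2 that overlap on opposite strands, and Mcm6 had 3, of which 2 overlap. The promoters of Ccnb2, Mki67, and Cdk1 are shown for the mitotic genes, with the CHR matches in capitals. They lie at chr9:70421505-70421804, chr7:135716330-135716629, and chr10:69352863-69353162, all on the minus strand of GRCm38.p6.
Ccnb2: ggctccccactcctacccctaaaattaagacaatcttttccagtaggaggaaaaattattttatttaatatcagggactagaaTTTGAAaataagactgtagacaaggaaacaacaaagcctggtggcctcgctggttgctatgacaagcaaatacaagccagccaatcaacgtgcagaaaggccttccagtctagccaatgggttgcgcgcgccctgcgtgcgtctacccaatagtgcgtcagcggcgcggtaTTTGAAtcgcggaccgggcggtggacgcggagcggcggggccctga
Mki67: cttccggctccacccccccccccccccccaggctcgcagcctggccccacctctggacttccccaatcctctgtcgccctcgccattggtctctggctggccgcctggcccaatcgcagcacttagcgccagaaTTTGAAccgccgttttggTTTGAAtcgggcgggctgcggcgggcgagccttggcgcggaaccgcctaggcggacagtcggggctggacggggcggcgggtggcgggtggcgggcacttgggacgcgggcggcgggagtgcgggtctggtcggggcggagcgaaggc
Cdk1: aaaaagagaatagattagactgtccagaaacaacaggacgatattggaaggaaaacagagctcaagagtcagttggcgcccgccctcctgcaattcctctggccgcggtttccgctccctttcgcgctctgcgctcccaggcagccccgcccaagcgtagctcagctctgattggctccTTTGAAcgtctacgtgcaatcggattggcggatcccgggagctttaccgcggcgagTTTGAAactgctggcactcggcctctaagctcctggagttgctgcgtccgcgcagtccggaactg

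Each of these promoters had 2 CHR matches and 3 CCAAT matches. In Ccnb2 the CCAAT boxes stood 33 bases apart from one to the next, and 1 CHR match began 5 bases into the transcript. Cdk1 was the mitotic gene whose window also held an E2F match, which began 131 bases before its start site (position -131).

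The libraries held 31073830 to 36205814 counted reads, and the member with the fewest reads, E2f2, had at least 293 in each tumor. The count table lacks Sora-treated tumor 4, whose whole counts were recovered from its FPKM, so results without this tumor rest on deposited counts alone. Values by tumor are FPKM, fragments scaled by gene length and by counted reads, which allows levels to be compared between genes. Of the hepatoma markers, Alb (mean over the 6 tumors 1306 FPKM), Krt18 (666 FPKM), and Afp (408 FPKM) were high, and Fabp1, a marker of mature hepatocytes, was near 0 (0.0412 FPKM, listed at 0 in 4 of the tumors). Control tumor 4 stood apart from the other tumors in the mitotic genes, so results are also given without it.

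None of the 42 proliferation genes passed the test for a change with Sora treatment. By edgeR's quasi-likelihood test with Benjamini-Hochberg adjustment over 16513 genes, 0 of 42 passed an adjusted p of 0.05, against 3.29% of all genes tested (1.94% higher and 1.34% lower in Sora-treated tumors). The adjusted p of the 42 genes ran from 0.19 to 0.999, and at an unadjusted p of 0.05 the test named 1 gene, E2f1, against 17.2% of all genes. DESeq2 and limma voom also called 0 of 42, where they called 7.71% and 3.2% of all genes tested. No member changed by more than 2-fold, a change called for 0.751% of all genes. The FPKM of the groups overlapped for all 42 members, whereas 21.7% of all genes tested had groups that did not overlap. With CPM scaled by edgeR's TMM method, 1 member, Ccna2, had groups that did not overlap (22.2% of all genes on that scale).

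The 95% interval of the log2 fold change, taken gene by gene, lay within 1.5-fold in either direction for 42 of 42 members, compared with 78.9% of all tested genes with a mean of at least 1 FPKM. It lay within 1.25-fold for 28 of the 42 (66.7%), compared with 43.5% of those genes. In this fit the widest reach was that of Ccne1 on the lower side, 0.704 of the control level, and that of E2f1 on the upper side, 1.37 times the control level. The median coefficient of variation within groups was 8.24% over the members and 7.98% over the tested genes with a mean of at least 1 FPKM. The median log2 fold change was -0.03 for the G1 genes, -0.01 for the S phase genes, and -0.05 for the mitotic genes, beside -0.00037 for all tested genes. Without control tumor 4 these medians were 0.0098, 0.03, and 0.05. In RNA of whole tumors, fewer dividing cells and less RNA per cell cannot be told apart.

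**Figure D2:**
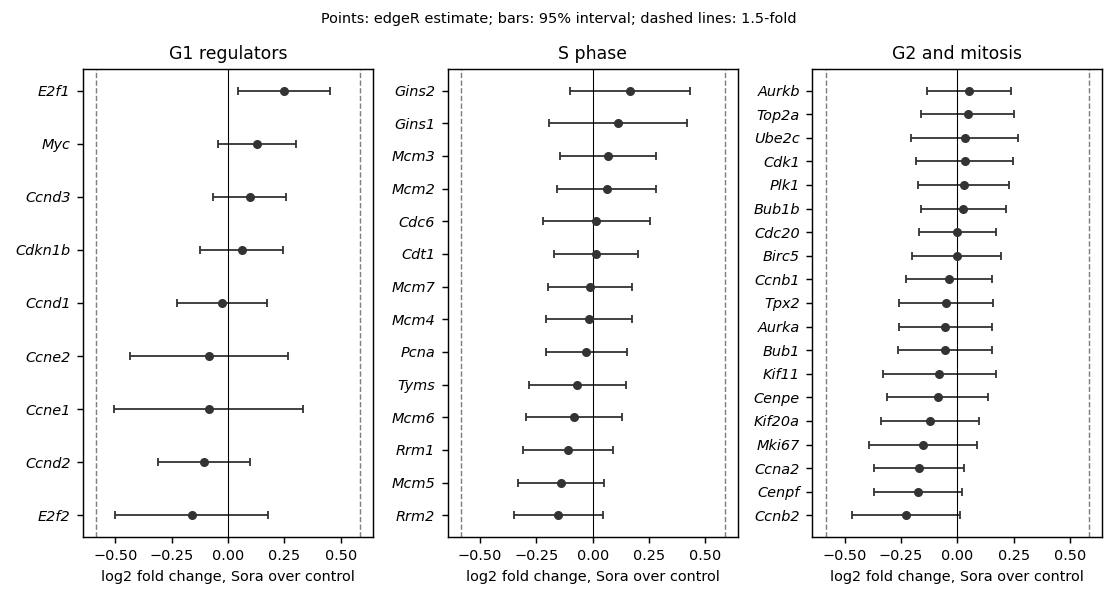
Log2 fold change of each gene in Sora-treated over control tumors (x axis; points, edgeR estimates; bars, 95% intervals) by phase, with dashed lines at 1.5-fold. All 42 intervals lie between the dashed lines, and the interval of E2f1 is the only one that does not cross 0.

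The G1 regulators held the most abundant and the least abundant of the 42 genes. Ccnd1, a D cyclin and a known target of RAS and ERK signaling, had the highest mean level of all members (208.5 FPKM), and Ccnd3 (29.1 FPKM) and Ccnd2 (8.30 FPKM) were lower. E2f2, an activating E2F factor, had the lowest mean level (2.12 FPKM). Of the 9 G1 genes, 4 had a log2 fold change above 0 and 5 below 0, and none passed the adjusted threshold.

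**Figure D3:**
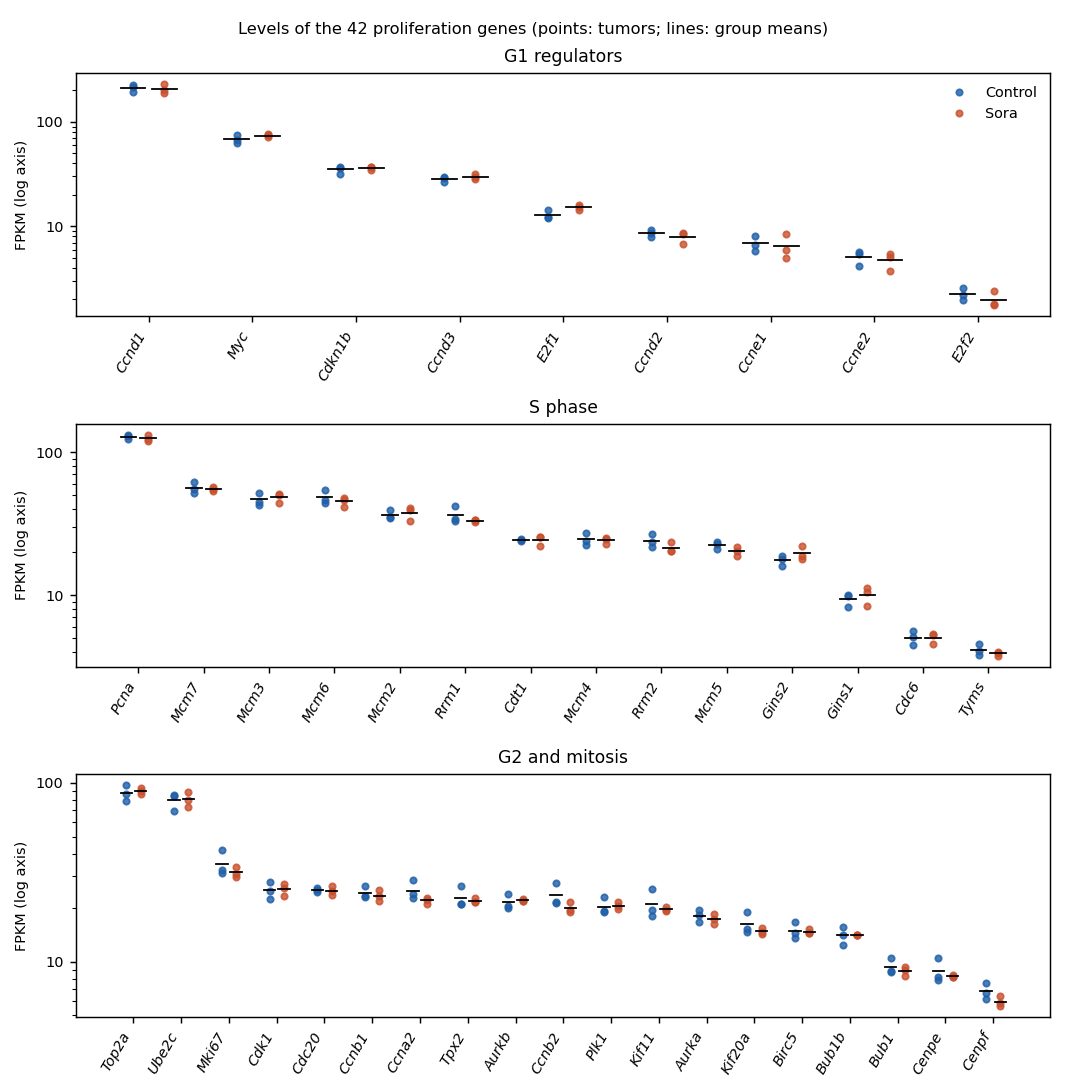
FPKM of the 42 genes on a log axis in each control (blue) and Sora-treated (orange) tumor, with lines for the group means, ordered by level within each phase. Levels run from 2.12 FPKM for E2f2 to 208.5 FPKM for Ccnd1, and the points of the groups overlap for every gene.

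E2f1, which drives entry into S phase, had the smallest p of the 42 genes. It was at 12.07, 12.36, and 14.29 FPKM across control tumors 1, 3, and 4, against 15.32, 14.28, and 15.97 FPKM across Sora-treated tumors 2, 3, and 4. Control tumor 4 and Sora-treated tumor 3 met at nearly the same level, and the other Sora-treated tumors lay above every control tumor. The means were 12.9 ± 1.2 and 15.2 ± 0.855 FPKM (SD, n = 3). The log2 fold change was estimated at 0.25 (standard error, SE, 0.09, 95% interval 0.04 to 0.45, edgeR unadjusted p = 0.022, adjusted p = 0.19). Without control tumor 4 its log2 fold change was 0.32 and its adjusted p 0.13, the smallest of any member in that fit. Across the 16 alternatives its log2 fold change stayed between 0.19 and 0.32, and its adjusted p between 0.10 and 0.82.

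Myc, the growth transcription factor, was at 66.6, 63.1, and 74.1 FPKM across control tumors 1, 3, and 4, against 75.5, 70.7, and 74.7 FPKM across Sora-treated tumors 2, 3, and 4. Control tumor 4 lay within the range of the Sora-treated tumors, and the other control tumors lay below that range. The log2 fold change was 0.13 (SE 0.08, edgeR adjusted p = 0.45). The D cyclins open G1 by activating Cdk4 and Cdk6. Ccnd1 was at 217, 194, and 223 FPKM across the controls, against 228, 189.7, and 199 FPKM across the Sora-treated tumors, in the same order of tumors, which all values by tumor follow. The groups covered the same range, and the log2 fold change was -0.03 (95% interval -0.23 to 0.17). Ccnd2 was at 8.66, 7.92, and 9.31 FPKM and at 8.71, 8.41, and 6.78 FPKM, with Sora-treated tumor 4 the lowest (log2 fold change -0.11, adjusted p = 0.62, edgeR). Ccnd3 was at 29.3, 28.8, and 26.5 FPKM and at 31.5, 29.9, and 28.3 FPKM, with control tumor 4 the lowest (log2 fold change 0.09, adjusted p = 0.58, edgeR). The D cyclins thus did not share a lowest tumor.

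Ccne1, the cyclin that activates Cdk2 at the start of S phase, varied most within groups among the members with values in every tumor. It was at 5.87, 6.68, and 8.12 FPKM across control tumors 1, 3, and 4, against 8.42, 4.97, and 5.98 FPKM across Sora-treated tumors 2, 3, and 4. Both the highest and the lowest value belonged to Sora-treated tumors, and its 95% interval, from -0.51 to 0.33 around a log2 fold change of -0.09, was the widest of the 42. Its log2 fold change was -0.43 when tumors were paired by number as a replicate block (edgeR unadjusted p = 0.030, adjusted p = 0.43). In that fit the contrast rests on the tumors numbered 3 and 4, because numbers 1 and 2 each occur in only 1 group. Sora-treated tumor 2, the highest for Ccne1, thus adds nothing to it. The log2 fold change of Ccne1 was -0.31 with Sora-treated tumor 2 left out and 0.08 when tumor 3 of that group was left out instead. Cdkn1b encodes p27, an inhibitor of cyclin-dependent kinases. It was at 37.3, 36.5, and 31.9 FPKM across the controls, against 34.8, 37.2, and 37.3 FPKM across the Sora-treated tumors, and control tumor 4 had the lowest level. Its log2 fold change was 0.06 (95% interval -0.12 to 0.24, adjusted p = 0.77, edgeR). Ccne2 and E2f2 had log2 fold changes of -0.08 and -0.16 (adjusted p 0.84 and 0.66, edgeR).

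The S phase genes had 6 log2 fold changes above 0 and 8 below 0, from -0.15 for Rrm2 to 0.16 for Gins2. Pcna, the sliding clamp of the replicative polymerases, had the highest level of the 14 (mean 127 FPKM), and Tyms, thymidylate synthase, the lowest (4.03 FPKM). The MCM genes, which encode the subunits of the replicative helicase, ranged from 21.4 FPKM for Mcm5 to 55.8 FPKM for Mcm7, a range that holds all 6 subunits.

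Mcm2 was at 34.4, 35.4, and 39.5 FPKM across control tumors 1, 3, and 4, against 39.7, 32.9, and 40.5 FPKM across Sora-treated tumors 2, 3, and 4. The Sora-treated tumors held both its highest and its lowest value, and the log2 fold change was 0.06 (95% interval -0.16 to 0.28, adjusted p = 0.81, edgeR). Mcm5 was at 21.0, 22.9, and 23.7 FPKM across the controls, against 21.7, 18.7, and 20.4 FPKM across the Sora-treated tumors. Sora-treated tumor 2 lay above control tumor 1, so the groups overlapped, with a log2 fold change of -0.14 (SE 0.09, edgeR adjusted p = 0.45). The other MCM genes, Mcm3, Mcm4, Mcm6, and Mcm7, had log2 fold changes of 0.07, -0.02, -0.08, and -0.01. The helicase genes as a group therefore had changes on either side of 0.

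The loaders of the helicase and its partners had log2 fold changes of 0.02 for Cdc6 and 0.01 for Cdt1, which license origins, and 0.11 for Gins1 and 0.16 for Gins2, subunits of the GINS complex that joins the active helicase. Gins2 was at 16.0, 17.9, and 18.9 FPKM across control tumors 1, 3, and 4, against 18.9, 17.8, and 22.02 FPKM across Sora-treated tumors 2, 3, and 4. Sora-treated tumor 4 was the highest and control tumor 1 the lowest, and the groups overlapped (adjusted p = 0.54, edgeR).

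Pcna was at 123.3, 131.1, and 130.7 FPKM across the controls, against 123.1, 119.1, and 132.6 FPKM across the Sora-treated tumors. The groups overlapped almost fully, and the 95% interval of its log2 fold change ran from -0.21 to 0.15. Rrm1 and Rrm2 encode the subunits of ribonucleotide reductase, which makes deoxynucleotides. Rrm2 was at 23.6, 21.8, and 26.6 FPKM across control tumors 1, 3, and 4, against 23.5, 20.3, and 20.4 FPKM across Sora-treated tumors 2, 3, and 4 (log2 fold change -0.15, SE 0.09, adjusted p = 0.43, edgeR). Rrm1 was at 34.1, 32.8, and 41.7 FPKM and at 33.6, 33.8, and 32.5 FPKM (log2 fold change -0.11, adjusted p = 0.59, edgeR). In both subunits control tumor 4 was the highest, and the remaining tumors of the groups overlapped. Tyms had a log2 fold change of -0.07 (adjusted p = 0.78, edgeR).

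The mitotic genes had 7 log2 fold changes above 0 and 12 below 0, the lowest being that of Ccnb2 (-0.23) and the highest that of Aurkb (0.05). Top2a, the topoisomerase that untangles sister chromosomes, and Ube2c, the ubiquitin-conjugating enzyme of the anaphase-promoting complex, had the highest means (88.8 and 80.3 FPKM). Cenpf, a kinetochore protein, had the lowest (6.40 FPKM).

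The cyclins of G2 and mitosis act through Cdk1, and they are given here with it. Ccnb2 was at 21.54, 21.3, and 27.7 FPKM across control tumors 1, 3, and 4, against 21.55, 19.3, and 18.9 FPKM across Sora-treated tumors 2, 3, and 4. Sora-treated tumor 2 lay level with control tumors 1 and 3, and control tumor 4 lay above all others. The log2 fold change of Ccnb2 was -0.23 (SE 0.11, 95% interval -0.47 to 0.01, adjusted p = 0.32, edgeR). Ccna2, the cyclin of S phase and G2, was at 23.8, 22.63, and 28.4 FPKM across the controls, against 21.1, 22.67, and 22.2 FPKM across the Sora-treated tumors. Control tumor 3 and Sora-treated tumor 3 were nearly level, and the log2 fold change was -0.17 (SE 0.09, edgeR adjusted p = 0.38). On TMM-scaled CPM, Ccna2 was at 78.1, 78.2, and 95.3 across the controls, against 70.8, 75.8, and 77.2 across the Sora-treated tumors, so all of the latter lay lower. Ccnb1, the other B cyclin, was at 22.9, 23.3, and 26.3 FPKM and at 25.2, 21.8, and 23.2 FPKM (log2 fold change -0.04, 95% interval -0.23 to 0.15). Cdk1, the kinase that these cyclins activate, was at 22.4, 24.9, and 27.8 FPKM and at 27.3, 23.3, and 25.7 FPKM (log2 fold change 0.03, 95% interval -0.19 to 0.25). The values of Ccnb1 and Cdk1 were interleaved between the groups.

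Mki67 encodes Ki-67, the common histological marker of dividing cells. It was at 31.3, 32.7, and 41.95 FPKM across control tumors 1, 3, and 4, against 30.9, 33.96, and 29.7 FPKM across Sora-treated tumors 2, 3, and 4. Control tumor 4 was the highest, and the remaining tumors lay between 29.7 and 33.96 FPKM. The log2 fold change was -0.15 (SE 0.11, 95% interval -0.39 to 0.09, adjusted p = 0.53, edgeR). Cenpf was at 6.64, 6.19, and 7.60 FPKM and at 5.65, 6.45, and 5.85 FPKM (log2 fold change -0.18, SE 0.09, adjusted p = 0.35, edgeR). Sora-treated tumor 3 lay within the control range for Cenpf. Top2a was at 79.4, 86.8, and 97.0 FPKM and at 89.5, 86.3, and 93.7 FPKM, with both extremes among the control tumors (log2 fold change 0.05, adjusted p = 0.85, edgeR). The 12 other mitotic genes, which hold the Polo and Aurora kinases Plk1, Aurka, and Aurkb, the survivin gene Birc5, the checkpoint genes Bub1 and Bub1b, the motors Kif11, Kif20a, and Cenpe, the spindle factor Tpx2, and Cdc20 with Ube2c, had log2 fold changes from -0.12 to 0.05 (adjusted p 0.59 to 0.999, edgeR). Bub1b was nearly constant across the Sora-treated tumors, at 14.10, 14.13, and 14.17 FPKM, and ranged from 12.3 to 15.6 FPKM in the control tumors.

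Most mitotic genes had their highest level in the same tumor. Control tumor 4 had the highest FPKM of the 6 tumors in 17 of 19 mitotic genes (89.5%), in 9 of 14 S phase genes, and in 1 of 9 G1 genes, compared with 20.3% of all tested genes. On TMM-scaled CPM these counts were 16, 8, and 1. The exceptions among the mitotic genes on FPKM were Cdc20 and Ube2c, which were highest in Sora-treated tumor 2. Relative to the median of the 6 tumors, the mitotic genes stood at a median of 1.15 in control tumor 4 and between 0.978 and 1.004 in each of the other tumors. Mki67 and Kif11, a motor that separates the spindle poles, were furthest up in control tumor 4 (1.31 times the median for each), followed by Ccnb2 (1.29), Cenpe (1.28), and Kif20a (1.26). Of the 19 mitotic genes, 8 were over 1.2 times the median there, as were 6.06% of the 12218 tested genes with a mean of at least 1 FPKM.

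**Figure D4:**
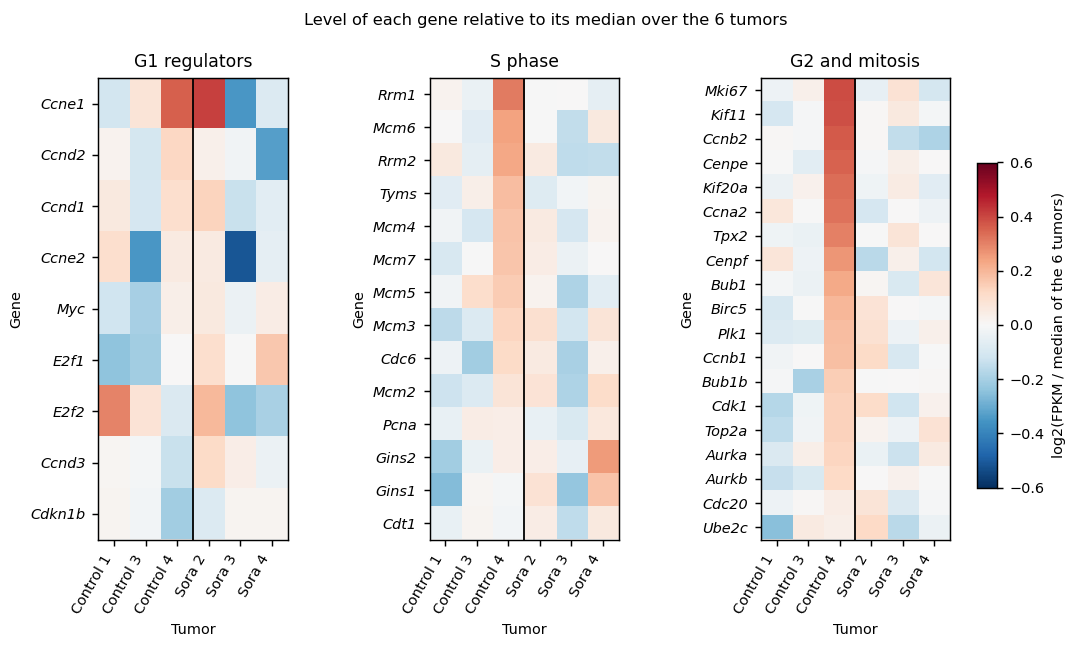
Log2 of the FPKM of each gene over its median across the 6 tumors (color scale; rows, genes by phase and sorted by control tumor 4; columns, tumors, with a line between control and Sora-treated tumors). The column of control tumor 4 is red for most S phase and mitotic genes, up to 1.31 times the median for Mki67 and Kif11.

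Control tumor 4 had the deepest library (36205814 reads). Genes of long transcripts were also higher in it: the median relative level was 0.959 in the shortest of 4 equal groups of genes by length and 1.04 in the longest, against 1.15 for the mitotic genes. The shortest group held 3 mitotic members, Ccnb2 (1541 bases) at 1.29, Cdc20 (1784 bases) at 1.03, and Ube2c (931 bases) at 1.03. Cdc20 and Ube2c are thus short as well as being the exceptions not highest in control tumor 4. The part of transcript length in the level of the mitotic genes was not tested.

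A score of each phase, the mean of log2(FPKM + 1) over its genes, gives each phase 1 value per tumor. The mitotic score was 4.38, 4.41, and 4.64 across control tumors 1, 3, and 4, against 4.45, 4.40, and 4.42 across Sora-treated tumors 2, 3, and 4. The Sora-treated tumors lay close together, and the spread of the control tumors came from tumor 4. The S phase score was 4.61, 4.64, and 4.80 across the controls, against 4.70, 4.56, and 4.71 across the Sora-treated tumors, with Sora-treated tumor 3 the lowest. The G1 score was 4.26, 4.18, and 4.29 across the controls, against 4.37, 4.15, and 4.22 across the Sora-treated tumors, and its extremes were both Sora-treated tumors. The difference between group means of the score was 0.0020 for G1, -0.02 for S phase, and -0.05 for mitosis.

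**Figure D5:**
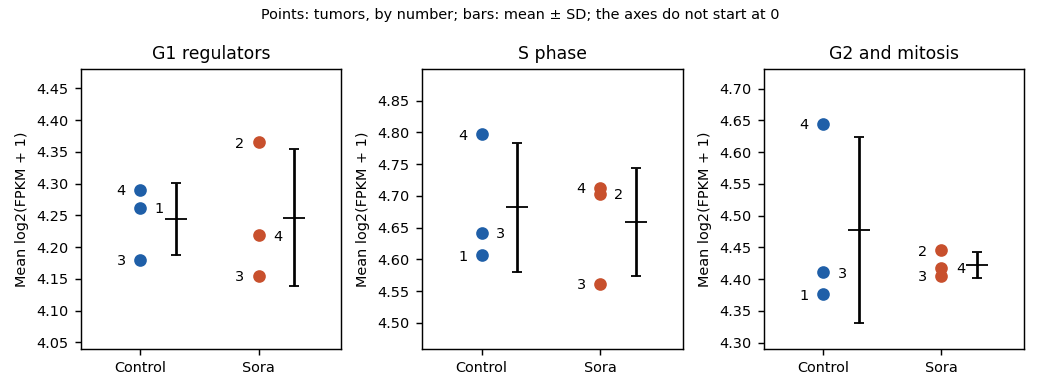
Score of each phase (y axis, mean log2(FPKM + 1) over its genes) in each tumor (points, with tumor numbers) and the mean ± SD of each group (bars, n = 3). Control tumor 4 is the highest point for S phase (4.80) and mitosis (4.64), and the other mitotic scores lie between 4.38 and 4.45.

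Without control tumor 4, the direction of the median turned: it was 0.05 for the mitotic genes, with 13 of 19 above 0, and 0.03 for the S phase genes, with 9 of 14 above 0. This tumor was singled out as the highest in most of these genes, so an upward shift follows from that choice. No member was called in that fit (smallest adjusted p = 0.13, edgeR), where 1.08% of all genes tested were called and 2 members, E2f1 and Myc, had an unadjusted p under 0.05. For the mitotic genes with the smallest p, the log2 fold change moved toward 0, to -0.10 for Ccnb2, -0.07 for Ccna2, -0.09 for Cenpf, and -0.01 for Mki67. Among the S phase genes, that of Rrm2 was -0.08 and that of Rrm1 was -0.00031 without this tumor. Without Sora-treated tumor 3, the median of the G1 genes was 0.07, that of the S phase genes was 0.02, and that of the mitotic genes was -0.00059, so the G1 and S phase medians turned with this tumor left out as well. In that fit 0 of 42 members were called by edgeR, against 7.03% of all genes tested, and 2 members, E2f1 and Cenpf, had an unadjusted p under 0.05.

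Other genes of the cell cycle, listed by phase from general knowledge, were treated in the same way. None of 25 G1 genes, 48 replication genes, and 54 mitotic genes passed an adjusted p of 0.05 by edgeR, and 7, 7, and 5 had an unadjusted p under 0.05 (17.2% of all genes tested). Their median log2 fold changes were 0.01, -0.03, and -0.08. Without overlap between the groups, 0 of the 54 mitotic genes were higher and 9 lower in Sora-treated tumors, 2 of the 48 replication genes were higher and 6 lower, and 4 of the 25 G1 genes were higher and 2 lower. Of all genes tested, 10.6% were higher and 11.2% lower without overlap. Control tumor 4 was the highest tumor in 49 of these 54 genes (90.7%) and in 23 of the 48 replication genes. Without it, 28 of the 54 were above 0 and 26 below 0, and here too an upward shift follows from leaving out the highest tumor. The smallest adjusted p of the 127 genes was that of Cdkn2b, which encodes the CDK inhibitor p15, named here after its values were seen (log2 fold change 0.28, adjusted p = 0.13, edgeR). Without Sora-treated tumor 3 it was the 1 gene of the 127 to pass the threshold (log2 fold change 0.34, adjusted p = 0.044, edgeR), where 7.03% of all genes tested passed.

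Marker lists of 4 other cell types had scores that did not overlap between the groups. The score of 12 T cell markers was 3.51 to 3.72 in control and 3.22 to 3.30 in Sora-treated tumors, with all 12 log2 fold changes below 0 and 1 called by edgeR, where 3.29% of all genes tested were called. That of 10 macrophage markers was 5.86 to 5.96 and 5.59 to 5.79 (9 below 0, 1 called), and that of 10 fibroblast markers was 6.27 to 6.35 and 5.80 to 6.20 (9 below 0, 1 called). That of 8 neutrophil markers was 2.34 to 2.63 and 2.64 to 3.19 (6 of 6 tested above 0, 1 called). Of the 2 neutrophil markers too low to test, the defining marker Ly6g was near 0 (0.204 FPKM), and Camp had a mean of 0.802 FPKM in control and 0.143 FPKM in Sora-treated tumors. Scores overlapped between the groups for the markers of hepatoma cells (4.64 to 4.82 and 4.74 to 4.85, 4 of 13 called) and endothelium (3.03 to 3.19 and 2.76 to 3.197). They also overlapped for keratinocytes (2.84 to 4.21 and 3.59 to 4.05) and skeletal muscle (3.35 to 3.78 and 3.46 to 4.04). Behind the hepatoma score, Ttr (log2 fold change -2.15) and Alb (-0.55) fell and Apoa1 (1.03) and Hnf4a (0.80) rose in Sora-treated tumors (adjusted p 0.0055, 0.041, 0.047, and 0.013, edgeR). Control tumor 4 had the highest FPKM of the 6 tumors in 6 of the 13 hepatoma markers (46.2%), 4 of 10 endothelial, 3 of 10 fibroblast, 2 of 12 T cell, and 1 of 10 macrophage markers, against 20.3% of all tested genes. It was the highest in 0 of the neutrophil, keratinocyte, and muscle markers, and in none of these list scores. The part of these cells in the levels of the proliferation genes was not tested.

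Overlap with neighboring genes can affect some of the counts, in a direction that is not known here. In GENCODE M21, exons of 12 members overlap exons of another gene, among them Ccna2 with Exosc9, Cdc20 with Elovl1, Mcm7 with Cops6 and Ap4m1, and Ube2c with the muscle gene Tnnc2, all on opposite strands. Whether the counting used strand is not given in the sources used here, so these genes are less certain. Ccnb1 has a copy in the table, Ccnb1-ps, at a mean of 0.359 FPKM.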

How the data were processed

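RNA of 6 subcutaneous tumors was sequenced on a BGISEQ-500. The authors deposited raw gene counts for 5 tumors, and FPKM values for all 6. The paper names Bowtie2, GRCm38, and expectation maximization for the FPKM, whereas the submitters' processing notes list GRCm39, HISAT2, HTSeq, fastp, R 3.2.0, and DESeq2, so the origin of each step is not settled here.

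The counts of Sora-treated tumor 4 were worked back from FPKM, with gene lengths implied by the other tumors. All of its 20951 expressed genes with a length came within 0.001 of a whole read. For genes with a length, the calculation also returned the counts of the 5 known tumors exactly. Another 342 genes, which held 512 reads of Sora-treated tumor 4, had no length from the other tumors and were set to 0.

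Genes that reached 10 counts in 3 or more tumors (16513, all 42 members included) were tested with edgeR 4.0.16 (TMM, quasi-likelihood, R 4.3.3), with Benjamini-Hochberg adjustment over all of them. The biological coefficient of variation was 0.132. DESeq2 1.42.0, limma 3.58.1 on voom weights and on log2(FPKM + 1) or log2(FPKM + 0.1), other scalings, other filters, a replicate block, and leaving out each tumor were alternatives. The script was checked on simulated counts. Intervals cover the spread between tumors.

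The members and lists were chosen with earlier results of these data known. Values in every tumor are given for members that were called, did not overlap, had 1 of the 4 smallest p in their phase, or are usual readouts of proliferation (Mki67, Top2a, Ccnb1, Cdk1, Pcna, Mcm2, Rrm2, Ccne1, E2f1, Ccnd1, Myc, and Cdkn1b). Bub1b was added after its values were seen. The counts of members highest in control tumor 4, on FPKM and on TMM-scaled CPM, were also chosen after seeing the data. Promoter windows and their sequences are from RefSeq. The scores of 1 marker list are not reported here.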

Additional observations from a re-analysis of the deposited data

How the results depend on the processing

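No member passed an adjusted p of 0.05 in any of the 16 alternatives, the smallest being 0.10 for E2f1 without Sora-treated tumor 3. Of the 42 members, 16 kept the sign of their log2 fold change in all alternatives and 26 changed it in at least 1. On TMM-scaled CPM 1 member (Ccna2) had groups that did not overlap, and on counts over DESeq2's size factors the number was also 1. With 1 tumor left out at a time, the median log2 fold change ran from -0.10 (-0.0992) to 0.07 (0.0744) for the G1 genes, from -0.06 (-0.062) to 0.03 (0.0344) for the S phase genes, and from -0.11 (-0.107) to 0.05 (0.0499) for the mitotic genes. In the same fits 0 to 1 of the 25 other G1 genes was called. The groups share tumor numbers 3 and 4, and same-numbered tumors did not deviate together (correlations -0.0326 and -0.0736). So few pairs cannot settle whether tumors were paired, and the numbers are read as names. With the replicate block, 0 members and 125 genes in all were called, 11 members changed sign, and the medians were -0.10 (G1), -0.06 (S phase), and -0.12 (mitosis). The contrast of that fit rests on the tumors numbered 3 and 4, since the other numbers each occur in only 1 group. The number of all genes called depended on the setting: 543 by edgeR, 1194 by DESeq2, 1147 without a filter, 286 by limma on log2(FPKM + 1), 252 with 0.1 added, 0 by limma on all genes, and, with 1 tumor left out, from 5 (Sora-treated tumor 4 removed) to 1145 (Sora-treated tumor 3 removed). The cause was not tested. With 3 tumors a group, the precision is that of the stated 95% intervals.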
